A study of Mus musculus with 2 samples.

Results

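The regulatory T cell identity genes were followed across the immune cells of mouse tumours: Foxp3 and Ikzf2 (Helios), which encode transcription factors, Il2ra (CD25) and Ccr8, which encode receptors, and Itgae (CD103) and Izumo1r (folate receptor 4), which encode surface proteins. They were chosen by symbol as markers by which regulatory T cells are known, and they are 6 of the 32285 genes in the deposited tables. The data were single-cell RNA sequencing counts from CD45-positive cells, sorted from tumours of B16-hAXL, a line of mouse melanoma cells that, going by its name, carries human AXL. Both groups were labelled wild type and day 15. One group had received PBS and the other 200 µg of the antibody 6C5, labelled as directed against AXL, both by intraperitoneal injection. Each group is 1 library, and no source used here says how many mice it came from. Every difference below therefore compares 2 libraries without a replicate check, and every interval is a 95% interval that covers counting error only.

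Regulatory T cells restrain other immune cells, and Foxp3 is the transcription factor that fixes their identity. They take up interleukin 2 through a receptor of high affinity whose alpha chain is encoded by Il2ra, and signalling through its beta and gamma chains reaches STAT5, which helps to keep Foxp3 expressed. Ikzf2 stabilises the programme in many of these cells, Ccr8 is a chemokine receptor that is common on regulatory T cells inside tumours, Itgae pairs with the integrin chain beta 7 to hold cells to E-cadherin, and Izumo1r is a folate receptor family protein found on regulatory and some unresponsive T cells. None of the 6 is limited to regulatory T cells: activated T cells and mature dendritic cells can carry CD25, CD8 T cells and NK cells can carry Helios, and the cross-presenting dendritic cells called cDC1 carry CD103.

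The PBS library held 78923567 unique molecular identifiers (UMIs, each standing for 1 captured transcript) and the 6C5 library 85921419. Of the barcodes that passed quality filters, 12426 and 12074 were clustered, and 7312 (58.8%) and 6840 (56.7%) of these stayed unnamed, with a median of 916 and 1353 UMIs. The libraries shared 272 passing barcodes, 1.94% of those in PBS and 2.01% of those in 6C5. Levels are given as CPM, counts (UMIs) of a gene per 1000000 counts of the cell subset. Regulatory T-like cells were a subcluster of 44 PBS and 68 6C5 cells, with median depths of 5404.5 and 7238.5 UMIs, found without any of the 6 genes among the genes used for subclustering and named from a marker list in which Foxp3 was the only member. The same 112 cells were named when Foxp3 was left out of that list. That changed the naming only, where 8 markers were met and 3 required, so it was no check on the subcluster itself. The first clustering, of all cell types, did not leave the 6 genes out. In the regulatory T-like cells Cd4 stood at 216 CPM in PBS and 166 CPM in 6C5. Cd8a had 0 and 1 UMIs and Cd8b1 6 in each library, and Ctla4, an inhibitory receptor, stood at 1421 and 2093 CPM. The label of regulatory T cells thus holds in the helper marker. Gpr83, another marker on the list, had 0 UMIs in both libraries, but it was also at 0 in CD8 T-like and NK-like cells.

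Foxp3 (ENSMUSG00000039521) lies on chromosome X at 7573644 to 7595245 on the plus strand of build GRCm38, a protein-coding gene with 21.2% of its length in exons. Il2ra (ENSMUSG00000026770) lies on chromosome 2 at 11642807 to 11693193 on the plus strand. Ikzf2 (ENSMUSG00000025997) spans 69531214 to 69687245 on the minus strand of chromosome 1 and is the longest of the 6, with 7.44% of its length in exons. Chromosome 9 holds both Ccr8 (ENSMUSG00000042262), at 120092114 to 120094906 on the plus strand, and Izumo1r (ENSMUSG00000031933), at 14885814 to 14903949 on the minus strand. Itgae (ENSMUSG00000005947) was found on chromosome 11 at 73090583 to 73147446, plus strand. Promoter windows of RefSeq (GRCm38.p6) matched 4 of the 6 genes and were searched on both strands for 4 motifs: forkhead (TGTTTNC), STAT (TTCNNNGAA), RUNX (TGNGGT) and AP-1 (TGANTCA). The windows below are those with a match among genes that were detected together in the regulatory T-like cells. Each is written 5′ to 3′ on the strand of the gene, with the matches in capitals and exon bases left out.
Foxp3, chrX:7580233-7580482: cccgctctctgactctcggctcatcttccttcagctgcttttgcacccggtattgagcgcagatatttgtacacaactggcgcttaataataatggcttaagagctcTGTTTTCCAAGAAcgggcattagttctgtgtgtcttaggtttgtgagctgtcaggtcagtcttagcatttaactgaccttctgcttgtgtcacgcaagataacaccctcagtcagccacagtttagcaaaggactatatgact
Il2ra, chr2:11642542-11642791: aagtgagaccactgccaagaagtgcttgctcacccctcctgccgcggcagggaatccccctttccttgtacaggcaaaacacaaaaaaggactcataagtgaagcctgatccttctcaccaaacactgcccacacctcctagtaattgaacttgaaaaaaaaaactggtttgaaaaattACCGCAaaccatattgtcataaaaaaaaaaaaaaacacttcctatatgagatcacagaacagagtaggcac
Ccr8, chr9:120091883-120092113: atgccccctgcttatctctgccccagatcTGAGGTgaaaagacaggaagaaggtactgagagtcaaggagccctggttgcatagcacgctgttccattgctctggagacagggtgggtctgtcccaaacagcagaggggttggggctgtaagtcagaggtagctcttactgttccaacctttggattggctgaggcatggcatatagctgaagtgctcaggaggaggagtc
The Foxp3 window, which lies within the gene as annotated by GENCODE, holds a forkhead match and a STAT match that overlap, while Il2ra and Ccr8 hold 1 RUNX match each. A second Foxp3 window and that of Izumo1r held none of the 4 motifs in the 141 and 68 bases left without exon bases. The shares that follow are over windows without such trimming, so they are no measure for these shorter ones. Among 32536 RefSeq windows of 250 bases, 17.8% hold the forkhead letters, 7.04% the STAT letters, 40.2% the RUNX letters and 6.73% the AP-1 letters, so each match is a description of sequence and no more.

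The 6 genes fell into 3 patterns over the cell subsets. Foxp3, Ccr8 and Izumo1r were highest in regulatory T-like cells, with Ccr8 and Izumo1r also present in CD8 T-like and other T cells. Il2ra was shared between regulatory T-like cells and mature dendritic cells, and Ikzf2 between regulatory T-like, CD8 T-like, NK-like and other T cells. Itgae was mainly a gene of cDC1-like cells. Since the subsets were built from clusters of these same cells, their order is a description without a test.

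**Figure D1:**
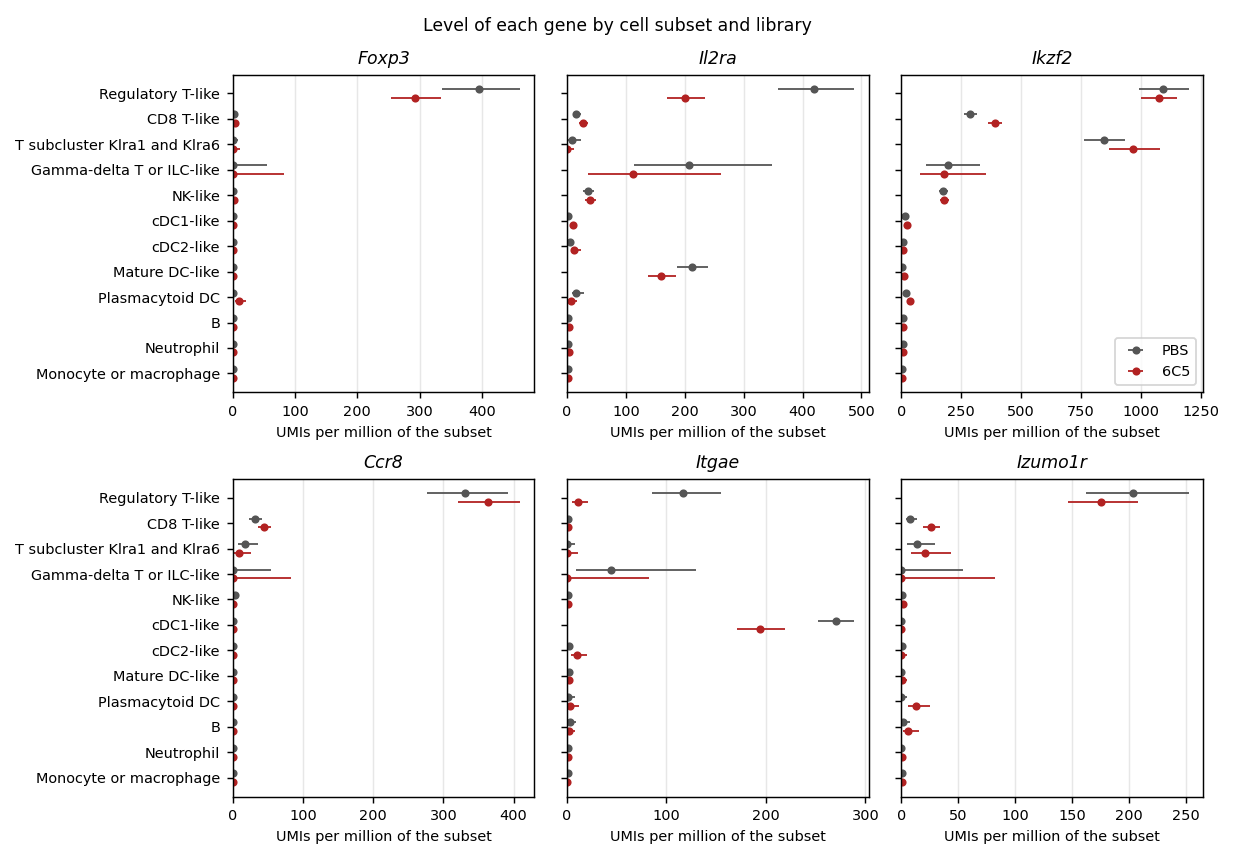
Level of each gene in CPM of the subset (x axis, linear) in 12 cell subsets (y axis) of the PBS library (grey) and the 6C5 library (red); bars are exact Poisson 95% intervals. Foxp3, Ccr8 and Izumo1r peak in regulatory T-like cells, Il2ra has further peaks in mature DC-like and gamma-delta T or ILC-like cells, and Itgae peaks in cDC1-like cells.

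Foxp3, the transcription factor that defines the lineage, had 159 UMIs in PBS and 218 in 6C5 regulatory T-like cells, and 34 of 44 and 55 of 68 cells had at least 1. The median cell held 3 UMIs in PBS and 2 in 6C5, and the highest 14 and 17, so the distributions overlapped. As a level, Foxp3 stood at 395 CPM (336 to 461) in PBS and 292 CPM (255 to 334) in 6C5, a ratio of 0.740 (0.600 to 0.914) that stayed between 0.670 and 0.762 in the 14 other settings tried. None of these settings counted T cell subclusters mixed with other cell types as regulatory T-like. CD8 T-like cells had 3 UMIs in 3 of 87 PBS cells and 6 UMIs in a single one of 131 6C5 cells. NK-like cells had 0 UMIs in 281 PBS cells, which allows a share of cells with a UMI of up to 1.07%, and 4 UMIs, all in 1 of 272 6C5 cells. Plasmacytoid dendritic cells had 6 UMIs, all in 1 6C5 cell. It was listed at 0 in all 495 B cells, which allows a share of cells with a UMI of up to 0.606% at a median depth of 2587 UMIs. These limits concern detection, since 23 of 112 regulatory T-like cells also had no Foxp3 UMI. In monocytes and macrophages 35 of 4681 barcodes (0.748%) had a Foxp3 UMI, nearly always 1, and free RNA from barcodes with 10 to 100 UMIs gave 3.94 CPM in PBS and 4.64 CPM in 6C5.

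Regulatory T-like cells held 377 of the 767 Foxp3 UMIs in clustered barcodes (49.2%). Another 210 (27.4%) lay in T cell subclusters mixed with other cell types, most of them 2 subclusters led by monocyte and macrophage genes, with medians of 17462.5 and 23718.5 UMIs. In those mixed barcodes, 54 of 360 had a Foxp3 UMI, at 3.89 UMIs per positive barcode against 4.24 in regulatory T-like cells. Unnamed barcodes held 93 Foxp3 UMIs, at 1.02 per positive barcode. The mixed subclusters were unequal between libraries: 33 PBS and 147 6C5 barcodes in the one led by Cxcl3 and Arg1, and 85 and 53 in the one led by C1qc and Cxcl9. Whether a mixed barcode held 2 cells or 1 cell with RNA of another was not tested.

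**Figure D2:**
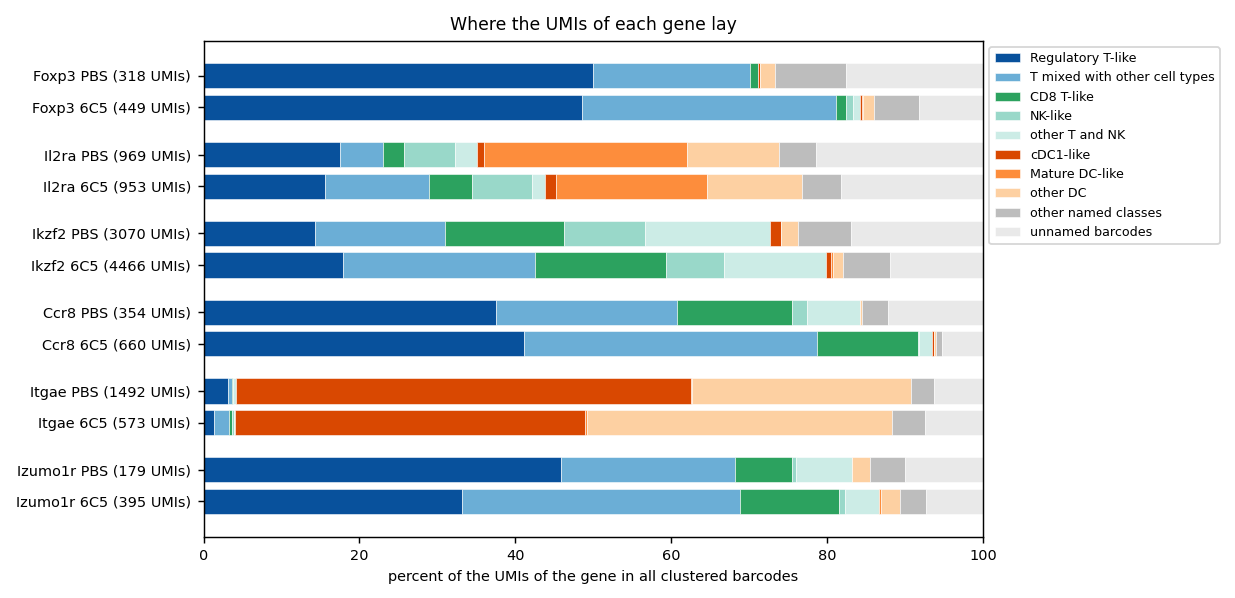
Share of all UMIs of each gene in clustered barcodes (x axis, percent) by cell class, 1 bar per gene and library with its UMI total. Regulatory T-like cells and mixed T cell barcodes together hold most of the UMIs of Foxp3, Ccr8 and Izumo1r in each library, whereas dendritic cells hold most Itgae UMIs.

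Ikzf2, which encodes Helios, was the most widely spread of the 6 over T and NK cells, and its interval in regulatory T-like cells included a ratio of 1. There it had 440 UMIs in PBS and 801 in 6C5, in 39 of 44 and 66 of 68 cells, and the median cell held 8 and 9. The levels were 1093 CPM (993 to 1200.2) and 1074 CPM (1001 to 1151), a ratio of 0.982 (0.874 to 1.11). A T cell subcluster led by Klra1 and Klra6, which encode Ly49 receptors, held 845 CPM in 69 PBS cells and 969 CPM in 67 6C5 cells, with Ikzf2 in 56 and 57 of them. Those 136 cells had no Foxp3 UMI, which allows a share of cells with a UMI of up to 2.21% and sets no limit on cells expressing the gene, and held Cd8a at 84.0 and 151 CPM with 1 Cd4 UMI in each library. The highest Ikzf2 level of the T and NK subclusters was in a small unnamed one led by Gm26917, with 46 UMIs in 9 PBS barcodes (1766 CPM, 1293 to 2355) and 215 UMIs in 33 6C5 barcodes (2347 CPM, 2043 to 2682). Its barcodes were shallow, with medians of 2475 and 2089 UMIs, and 1 barcode held 43.5% of the Ikzf2 UMIs in PBS and 26.0% in 6C5. In CD8 T-like cells Ikzf2 stood at 288 CPM (263 to 315) in 87 PBS cells and 391 CPM (363 to 420) in 131 6C5 cells, a ratio of 1.36 (1.21 to 1.52). That difference lay in the cycling subcluster (245 and 471 CPM) and not in the one led by Lag3 and Pdcd1 (333 and 323 CPM), a contrast that was not tested. NK-like cells were alike at 174 and 178 CPM (ratio 1.02, 0.873 to 1.20), but within them the subcluster led by Rab27b and Klrb1b had 521 and 369 CPM and that led by Xcl1 and Gzmc 63.1 and 134 CPM. The NK-like ratio ran from 0.902 to 1.80 over the other settings, and its interval excluded 1 in 6 of 15. Free RNA held Ikzf2 at 72.8 CPM in PBS and 125 CPM in 6C5, and the estimated share of free RNA in CD8 T-like cells was 1.15% and 1.11%.

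Il2ra, the alpha chain of the interleukin 2 receptor, was lower in the regulatory T-like cells of the 6C5 library. It had 169 UMIs in PBS, in 31 of 44 cells, and 149 in 6C5, in 39 of 68 cells. The median cell held 1 UMI in both, while 9 PBS and 8 6C5 cells held 5 or more, and the highest PBS cell held 37, which was 21.9% of that library's total. The level was 420 CPM (359 to 488) in PBS and 200 CPM (169 to 235) in 6C5, a ratio of 0.476 (0.379 to 0.597), and 0.544 (0.424 to 0.698) without the cell with most UMIs in each library. After thinning every cell to 1000 UMIs, which left out 4 PBS and 2 6C5 cells, 31.0% and 16.9% were expected to keep an Il2ra UMI. In mixed T cell barcodes with at least 2 Foxp3 UMIs the order was the opposite, 50.2 CPM in 14 PBS and 125 CPM in 30 6C5 barcodes. Over all T and NK barcodes with at least 2 Foxp3 UMIs, mixed ones included, the ratio was 0.685 (0.559 to 0.841), and 32 of 45 PBS (71.1%) and 56 of 78 6C5 barcodes (71.8%) had an Il2ra UMI. The size of the difference in Il2ra therefore depended on which barcodes were taken as regulatory T cells.

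Outside regulatory T-like cells, mature DC-like cells held the most Il2ra, 437 of 1922 UMIs against 318. These migratory dendritic cells, marked by Ccr7 and Fscn1, had Il2ra in 69 of 110 PBS cells and 64 of 115 6C5 cells. Their level was 212 CPM (186 to 239) in PBS and 160 CPM (137 to 184) in 6C5, a ratio of 0.754 (0.620 to 0.915). cDC1-like and cDC2-like cells stood between 2.49 and 12.6 CPM, and in both the level was higher in 6C5, on few UMIs. cDC1-like cells had 8 and 14 UMIs (ratio 4.24, 1.66 to 11.7) and cDC2-like cells 13 and 10 (ratio 2.67, 1.05 to 6.59). A dendritic cell subcluster with interferon response genes, led by Ifit3 and Cxcl10 and mixed with monocyte genes, held 67.4 and 56.2 CPM. Gamma-delta T or ILC-like cells, led by Il17a and Cd163l1, had 14 UMIs in 14 PBS cells and 5 in 13 6C5 cells, 207 CPM (113 to 348) and 112 CPM (36.3 to 261). In NK-like cells Il2ra stood at 35.3 and 39.8 CPM (ratio 1.13, 0.796 to 1.60), but their subclusters differed in direction. The one led by Xcl1 and Gzmc had 61.8 and 32.6 CPM (ratio 0.528, 0.312 to 0.871). The cycling one had 32.0 and 96.7 CPM (ratio 3.02, 1.49 to 6.75) from 10 and 42 UMIs. The contrast between these NK-like subclusters was not tested. In CD8 T-like cells Il2ra was 15.9 CPM in PBS and 27.0 CPM in 6C5 (ratio 1.69, 1.04 to 2.82), with 14 of 87 and 19 of 131 cells positive. That difference lay in the cycling subcluster (4 and 22 UMIs) and not in the one led by Lag3 and Pdcd1 (27.5 and 28.6 CPM), a contrast that was not tested. Over all CD8 T-like cells the order turned when each library was clustered on its own, to 0.720 (0.439 to 1.15).

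Ccr8, a receptor for the chemokine CCL1, kept a similar level in the regulatory T-like cells of both libraries. It had 133 UMIs in PBS and 271 in 6C5, in 28 of 44 and 49 of 68 cells, with 1 and 2 UMIs in the median cell. The levels were 330 CPM (277 to 392) and 363 CPM (321 to 409), a ratio of 1.10 (0.890 to 1.36). CD8 T-like cells held 31.9 CPM in PBS and 44.6 CPM in 6C5, in 26 of 87 and 47 of 131 cells, a ratio of 1.40 (0.981 to 2.01). An unnamed T cell subcluster led by Cd40lg and Gzmk held 53.9 CPM in PBS (16 UMIs) and 25.8 CPM in 6C5 (6 UMIs). CD4 T cells outside regulatory T-like cells were taken by Cd3 and Cd4 UMIs without Cd8 UMIs. They had 10 Ccr8 UMIs in 27 PBS cells (80.7 CPM) and 0 in 20 6C5 cells. Ccr8 was listed at 0 UMIs in B, mature DC-like, cDC2-like and plasmacytoid dendritic cells of both libraries, and NK-like cells had 7 and 1 UMIs. Ccl1 itself was detected in CD8 T-like cells, with 321 UMIs in PBS and 201 in 6C5, or 197 and 104 CPM, a ratio of 0.530 (0.442 to 0.634). It had 0 and 1 UMIs in regulatory T-like cells and stood at 23.7 and 35.0 CPM in NK-like cells.

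Itgae, which encodes the integrin alpha chain CD103, differed most of the 6 between the regulatory T-like cells of the libraries. In PBS it had 47 UMIs in 15 of 44 cells, of which 11 held 2 or more and the highest 9. In 6C5 it had 8 UMIs in 8 of 68 cells, and none held more than 1. The levels were 117 CPM (85.8 to 155) and 10.7 CPM (4.63 to 21.1), a ratio of 0.0919 (0.0375 to 0.196). Free RNA held Itgae at 17.7 CPM in PBS and 5.0 CPM in 6C5, and its estimated share in these cells was 3.33% and 1.04%. With the expected free RNA subtracted the ratio was 0.0919 (0.0374 to 0.197). At such small shares the subtraction could hardly move it. The share was estimated from melanoma and haemoglobin genes, so it does not measure RNA from dendritic cells or macrophages. Defining cDC1 genes were near 0 in the same cells: Xcr1 had 1 and 2 UMIs and Clec9a 0 in both libraries. The summed level of the 13 dendritic cell markers was 1406 CPM in PBS and 1051 CPM in 6C5, with 4 of them at 0 in each library. Macrophage RNA differed, with C1qa at 67.1 CPM (27 UMIs) in PBS and 13.4 CPM (10 UMIs) in 6C5. Lyz2 stood at 91.9 and 34.9 CPM, and Csf1r had 6 and 0 UMIs. Over the 18 monocyte and macrophage markers the summed level was 696 and 809 CPM, with 3 and 4 markers at 0. In CD8 T-like cells that sum was 1076 and 1443 CPM, while C1qa stood at 47.8 and 9.34 CPM. The sum therefore need not follow macrophage RNA. The part of macrophage RNA in the result was not tested. Mixed T cell barcodes with at least 2 Foxp3 UMIs did not show the PBS level: 1 Itgae UMI in 14 PBS barcodes and 7 UMIs in 30 6C5 barcodes. With these included the ratio was 0.165 (0.0833 to 0.306). Its partner chain Itgb7 stood at 410 CPM in PBS and 307 CPM in 6C5 (ratio 0.749, 0.610 to 0.921), and E-cadherin (Cdh1) had 0 UMIs in both.

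**Figure D3:**
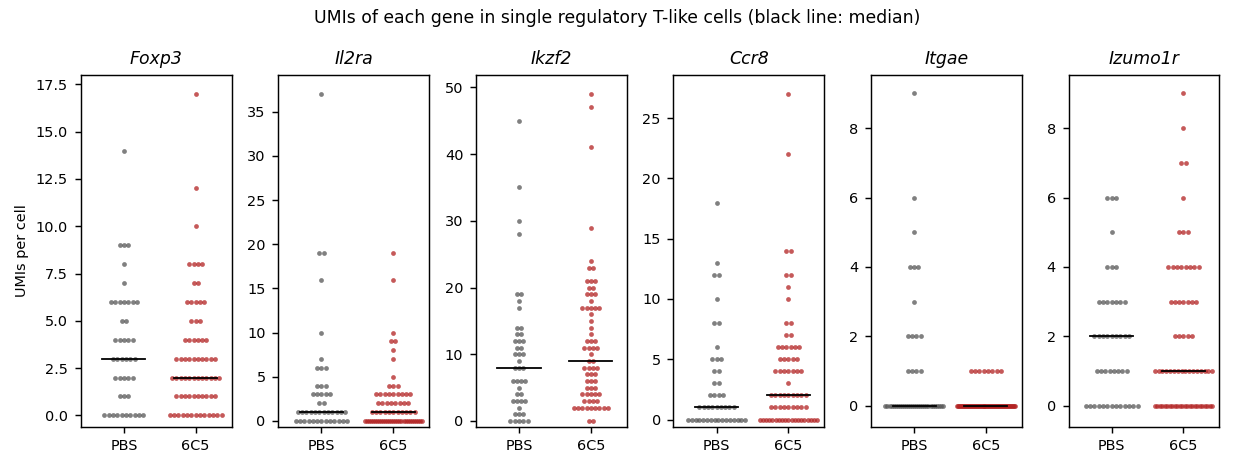
UMIs of each gene (y axis, 1 scale per gene) in each regulatory T-like cell of the PBS library (44 grey points) and the 6C5 library (68 red points); black lines are medians. For Itgae every 6C5 cell lies at 0 or 1 UMI while PBS cells reach 9, and for Il2ra 1 PBS cell stands apart at 37.

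Itgae UMIs lay mostly in dendritic cells. cDC1-like cells held 1127 of 2065 (54.6%), in 165 of 207 PBS cells and 60 of 82 6C5 cells. Their level was 270 CPM (253 to 289) in PBS and 194 CPM (171 to 219) in 6C5, a ratio of 0.716 (0.621 to 0.824). A cycling dendritic subcluster led by Hist1h1b stood at 204 CPM in PBS and 223 CPM in 6C5, with Itgae in 50 of 62 and 23 of 26 cells. That subcluster was not named but held the cDC1 marker Xcr1 at 235 CPM in PBS and 292 CPM in 6C5. A second cycling subcluster, led by Hist1h2ae and Pclaf, had 3 Itgae UMIs in 38 PBS cells and 0 in 21 6C5 cells. It was not named either, and held Xcr1 at 4.44 and 0 CPM and Cd209a, a cDC2 marker, at 1051 and 604 CPM. CD8 T-like cells had 2 Itgae UMIs in each library, and NK-like cells 1 in each. Ikzf2 was also present in cDC1-like cells at a low level, 13.7 CPM in PBS and 24.9 CPM in 6C5 (ratio 1.82, 1.12 to 2.92).

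Izumo1r, the folate receptor family member, had 82 UMIs in PBS and 131 in 6C5 regulatory T-like cells, in 31 of 44 and 44 of 68 cells. The levels were 204 CPM (162 to 253) and 176 CPM (147 to 208), a ratio of 0.862 (0.649 to 1.15). In CD8 T-like cells it was higher in 6C5, with 13 UMIs in 12 of 87 PBS cells and 50 UMIs in 33 of 131 6C5 cells. These are 7.97 CPM (4.24 to 13.6) and 25.9 CPM (19.3 to 34.2), a ratio of 3.25 (1.74 to 6.53) that ran from 1.87 to 3.49 in 15 other settings. Both CD8 T-like subclusters had that order, 8.41 and 23.9 CPM in the cycling one and 7.51 and 27.7 CPM in the one led by Lag3 and Pdcd1. An unnamed T cell subcluster led by Lef1 and Dapl1 held 27.5 CPM in PBS (5 UMIs) and 27.1 CPM in 6C5 (7 UMIs). CD4 T cells outside regulatory T-like cells had 0 and 6 Izumo1r UMIs. Free RNA held Izumo1r at 1.97 CPM in PBS and 5.72 CPM in 6C5. Izumo1, the sperm protein for which the gene was named, had 0 UMIs in regulatory T-like cells.

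Counted over the 6 genes, 2 (Il2ra and Itgae) were past 2-fold in regulatory T-like cells, both lower in 6C5. Only Itgae was past 2-fold without the cell with most UMIs of each gene in each library, and likewise over all T and NK barcodes with at least 2 Foxp3 UMIs, where Foxp3 itself was not counted. Among the 5126 genes with at least 30 UMIs in these cells, 4.49% were past 2-fold in either direction and 2.54% were lower. The median log2 ratio of the 6 was -0.32 against -0.03 over all genes counted. In CD8 T-like cells 1 of the 4 members counted (Izumo1r) was past 2-fold and higher, beside 4.24% of 7992 genes in either direction and 2.5% higher, and the median was 0.62 against 0.02. None of the 2 members counted in NK-like cells, of the 2 in cDC1-like cells or of the 1 in mature DC-like cells was past 2-fold, beside 2.53%, 4.44% and 4.28% of all genes counted there.

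**Figure D4:**
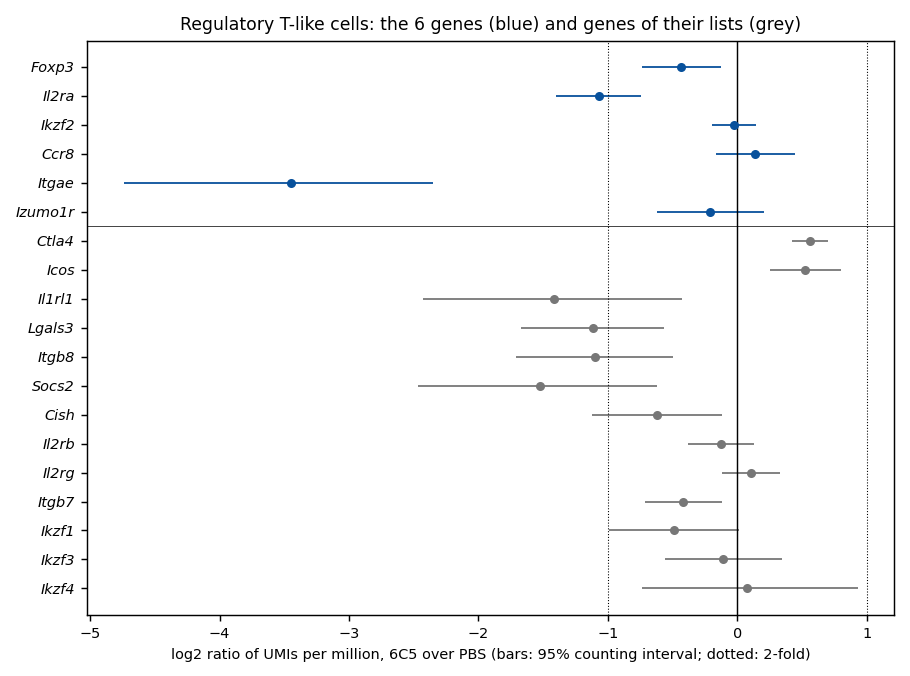
Log2 ratio of CPM in regulatory T-like cells, 6C5 over PBS (x axis), for the 6 genes (blue) and genes of the lists described in the text (grey); bars are 95% counting intervals, dotted lines mark 2-fold. Itgae lies at -3.44 and Il2ra at -1.07, both left of the 2-fold line, and Ctla4 at 0.56 and Icos at 0.52 lie to the right of 0.

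Genes around the 6 were read from 4 lists in the regulatory T-like cells. Of 29 counted effector genes, 0 were past 2-fold higher and 3 lower: Il1rl1, the receptor for interleukin 33 (log2 ratio -1.41), Lgals3, a galectin (-1.12, but a ratio of 1.16 under separate clustering of the libraries), and Itgb8, an integrin chain that activates TGF-beta (-1.10). The Itgb8 ratio of 0.467 was 0.262 under separate clustering and 0.525, short of 2-fold, at resolution 0.5. The list's median was -0.01. Ctla4 (ratio 1.47, 1.34 to 1.62) and the costimulator Icos (1.43, 1.19 to 1.74) were higher in 6C5 short of 2-fold, but separate clustering of the libraries gave ratios of 1.05 (0.932 to 1.18) and 1.19 (0.964 to 1.47). Of 25 counted Foxp3 partners and regulators none was past 2-fold, with a median of -0.11, and the Helios relatives Ikzf1 (0.711, 0.502 to 1.01), Ikzf3 (0.926) and Ikzf4 (1.05) had intervals that included 1. In the interleukin 2 receptor pathway 1 of 12 was past 2-fold, Socs2, a feedback inhibitor of cytokine signalling, at 28 and 18 UMIs (log2 ratio -1.53), with a median of -0.02 over the list. The Socs2 ratio was 0.347, and 0.690 (0.301 to 1.60) under separate clustering. Cish, another STAT5 target that restrains the pathway, had a ratio of 0.649 (0.460 to 0.919). The other receptor chains did not share the shift of Il2ra: Il2rb had a ratio of 0.916 (0.769 to 1.09) and Il2rg 1.07 (0.920 to 1.26). Il2 itself had 0 UMIs in regulatory T-like, CD8 T-like and NK-like cells of both libraries. Of 6 counted ligands and partners none was past 2-fold, with a median of -0.12.

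Regulatory T-like cells mostly carried several of the 6 genes at once. At least 4 were detected in 32 of 44 PBS cells (72.7%) and 44 of 68 6C5 cells (64.7%), and all 6 in 6 and 5 cells. Among CD8 T-like cells 1 of 87 in PBS and 6 of 131 in 6C5 carried at least 4, and in NK-like cells none did. Of the 89 regulatory T-like cells with a Foxp3 UMI, 85 had Ikzf2, 69 Izumo1r, 68 Ccr8, 65 Il2ra and 19 Itgae. In the 23 without one, 20 had Ikzf2, 9 Ccr8, 6 Izumo1r, 5 Il2ra and 4 Itgae. The median depth of those 23 was 2775 UMIs against 7714. As levels, Il2ra stood at 125 CPM in the 23 and 291 CPM in the 89. Ccr8 stood at 291 and 357 CPM, Izumo1r at 156 and 188 CPM and Itgae at 52.0 and 47.5 CPM. Ikzf2 was higher in the 23, at 1809 CPM against 1014 CPM. The part of depth in these differences was not tested.

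**Figure D5:**
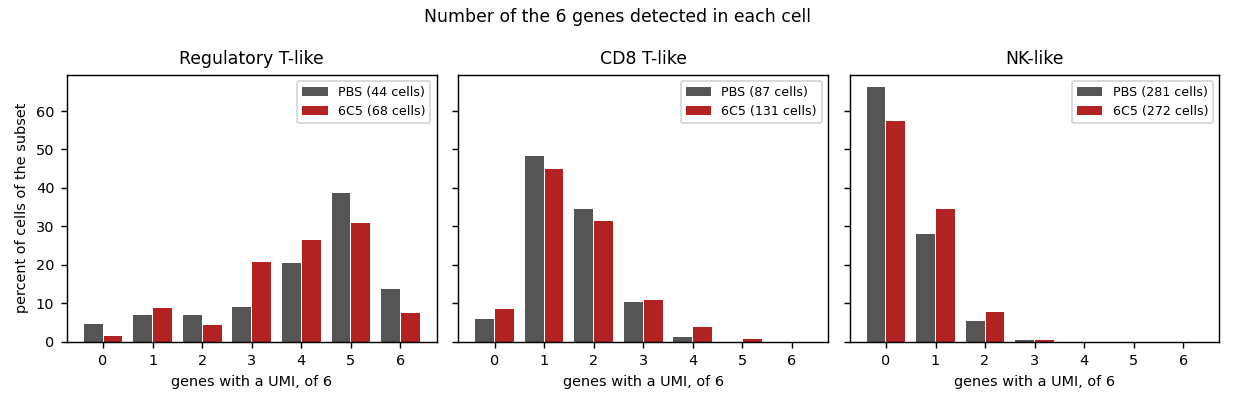
Percent of cells (y axis) by how many of the 6 genes had a UMI (x axis) in regulatory T-like, CD8 T-like and NK-like cells of the PBS (grey) and 6C5 (red) libraries. Most regulatory T-like cells have 3 or more, most CD8 T-like cells 1 or 2, and most NK-like cells 0 or 1.

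The share of regulatory T-like cells among T and NK cells outside mixed subclusters was 7.06% (5.18 to 9.37) in PBS, 44 of 623, and 9.58% (7.51 to 11.98) in 6C5, 68 of 710. The ratio was 1.36 (0.943 to 1.95), and its interval excluded 1 in 6 of 12 other settings. Taken by Foxp3 alone, after thinning to 1000 UMIs, 2.46% of 607 PBS and 3.06% of 688 6C5 cells were expected to have a UMI, a ratio of 1.24 (0.647 to 2.39).

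Across 25 points, each 1 subset in 1 library with at least 20 cells, genes were ranked by how like each member their log2 level was. Pearson r was used, as a description of points that share libraries. The ranking left out the members, mitochondrial genes, and genes on chromosomes X and Y. It also left out genes for ribosomal proteins and for the antigen receptors of T and B cells. The nearest of the genes ranked were as follows. Foxp3 went with Itgb8 (0.97), Neb (0.94) and Penk (0.94), the last encoding a precursor of enkephalins and leading the regulatory T-like subcluster. Foxp3 stood at 395 and 292 CPM in the regulatory T-like points and at 0 or a few CPM at most others. Its r therefore mostly reports that a gene was also high in regulatory T-like cells. Itgb8 had 128 UMIs over all points. Ccr8 went with A430093F15Rik (0.93), Dnajb13 (0.91) and Igflr1 (0.91), and Izumo1r with Rapsn (0.85), Rln3 (0.85) and Dnajb13 (0.84). For Il2ra the nearest were Arl5a (0.87), Stx11 (0.85) and Ssh1 (0.83), and for Ikzf2 Tnfsf10, which encodes TRAIL (0.95), Sytl2 (0.94) and Cysltr2 (0.92). Itgae went with Xcr1 (0.90), the chemokine receptor that marks cDC1, and with Gm42962 (0.90) and Cyp8b1 (0.89). Among the 6 themselves Foxp3 was nearest to Ccr8 (0.82) and Izumo1r (0.77), and farthest from Itgae (0.16).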

How the data were processed

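The values deposited for CD45-positive tumour cells, 1 library per group, are UMI counts by gene and barcode without normalization or a filter on barcodes. Per the file headers the software was Cell Ranger 7.1.0. Cell Ranger 2.1.1 and mm10 stand in the submitters' processing notes. No source used here says if intronic reads count. Libraries were made with a Chromium v3 kit per the labels' protocols.

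The filter asked for 500 or more UMIs, 300 or more genes and a mitochondrial share of 10% or less, which 13992 PBS and 13541 6C5 barcodes passed. Scrublet's automatic threshold marked 0 barcodes, so it had not worked, and the 1566 and 1467 highest-scoring barcodes were removed, at 0.8% per 1000 barcodes. Both libraries were clustered together in scanpy 1.11.5 (2000 variable genes, 30 components, 15 neighbours, Leiden resolution 1, leidenalg 0.10.2), and T, NK and dendritic cells again without the 6 genes among the variable genes. A name required 3 or more markers within the 100 leading genes, and clusters correlating at 0.98 or more with free RNA stayed unnamed. The libraries fell into separate unnamed clusters. Where another lineage led a subcluster, it was termed mixed and entered no subset.

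UMIs were summed per library and subset. Levels have exact Poisson intervals, shares exact Clopper-Pearson intervals, and ratios exact conditional binomial intervals, while ratios of shares have an interval on the log scale. UMIs of 1 library are not a sample of mice. No test over samples is possible at 1 library a group, so no p-value is given. A limit for a count of 0 uses 3 counts. Genes counted for a fold had at least 30 UMIs over both libraries. A thinned share is the expected share of cells that keep a UMI at 1000 UMIs. Free RNA came from barcodes with 10 to 100 UMIs, and its share in a subset from melanoma and haemoglobin genes. Positions come from GENCODE release M21 (GRCm38). An alternative scaling used the TMM method of edgeR 4.0.16 (R 4.3.3). Counting, intervals and thinning were checked on simulated counts. For the intervals these were drawn from the Poisson model that the intervals assume. That check could not show how UMIs clumped in single cells affect the intervals.

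The members and lists were chosen with earlier results of these data known. Genes named are the 6 members, the 4 list genes with the largest absolute log2 ratio in regulatory T-like cells, and some of the members' ligands and partners. For each member, the genes named include the 3 ranked genes of at least 100 UMIs with the highest correlation of log2(CPM + 10). Ctla4, Icos, Cish and the subclusters described were named after their values had been seen. Of per-sample columns belonging to other samples, 0 were found.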

Additional observations from a re-analysis of the deposited data

Results flagged for a closer look

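Il2ra was flagged because its level was lower in the 6C5 library in some cell types and higher in another, each with a counting interval that excluded a ratio of 1. The ratio of 6C5 over PBS was 0.476 in regulatory T-like cells and 0.754 in mature DC-like cells, against 1.69 in CD8 T-like cells. The flagged cell types each had at least 30 Il2ra UMIs. cDC1-like and cDC2-like cells had fewer, and their ratios were 4.24 and 2.67, with intervals that also excluded 1. Within CD8 T-like cells the difference lay in the cycling subcluster, with 4 UMIs in PBS and 22 in 6C5 (4.81 and 25.02 CPM). The subcluster led by Lag3 and Pdcd1 had 27.5 and 28.6 CPM, a ratio of 1.04 (0.580 to 1.89). The contrast between these subclusters was not tested. The difference between cell types was not tested, since each group has 1 library. In CD8 T-like cells the interval of the ratio included 1 in 9 of 15 other settings.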

How the results depend on the processing

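Each result was recomputed under up to 17 alternatives. No paired analysis was possible because each group has 1 library, and for the same reason no replicate could be left out. Of 349 recomputed values, 329 stayed within the counting interval of the reported value or, for the count of genes, at that count. For Il2ra in regulatory T-like cells the ratio was 0.341 with each library clustered on its own and 0.685 over T and NK barcodes with at least 2 Foxp3 UMIs, an alternative chosen after seeing the data. With each library clustered on its own, Lgals3 in regulatory T-like cells turned to 1.16 and Il2ra in CD8 T-like cells to 0.720, and the cause was not tested. Foxp3 (0.670 to 0.762) and Itgae (0.0873 to 0.165) in regulatory T-like cells kept their direction in every setting run, with intervals that excluded 1. Leaving Foxp3 out of the naming and counting mixed subclusters each kept the same 44 PBS and 68 6C5 cells, so neither could move these ratios. No Foxp3 setting counted mixed T cell subclusters as regulatory T-like. Foxp3 stood at 12.9 CPM in PBS and 26.1 CPM in 6C5 in the one led by Cxcl3 and Arg1. The one led by C1qc and Cxcl9 had 24.6 and 56.6 CPM. The one mixed with melanoma had 47.9 and 5.18 CPM (3 and 1 UMIs). The count of the 6 genes past 2-fold in regulatory T-like cells was 2 in 15 of 17 settings. It was 1 without the cell with most UMIs and 1 over barcodes with at least 2 Foxp3 UMIs, since Il2ra was then short of 2-fold. The share ratio of regulatory T-like cells ran from 1.25 to 1.62. Leaving out the cell with most UMIs and counting mixed T cells in the denominator were also chosen after seeing the data. Depth limits every count under about 30 UMIs, and 98 to 117 regulatory T-like cells were named over the settings.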
